A study of Mus musculus with 6 samples.

Results

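The genes described here are 33 members of the ATF4 integrated stress and amino acid response, taken by gene symbol from a read count table of 31205 genes; all 33 symbols were in the table. They were followed by RNA-seq in DC2.4, an immortalized line of murine dendritic cells, with 3 libraries from a derivative labelled PD-L1 knockout and 3 from cells labelled control. PD-L1 is a surface protein that restrains T cells through PD-1; its gene is Cd274. The title of the series places the comparison in work on dendritic cell ferroptosis during chemotherapy. The labels name no drug, no time and no further allele for either group, and do not say how the knockout was made or whether the derivative is a single clone. Nor do they say whether each library had its own culture, so a p-value here reflects only variation from library to library, possibly technical.

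The integrated stress response starts when a kinase phosphorylates the translation initiation factor eIF2, during amino acid shortage, protein misfolding in the endoplasmic reticulum, viral infection or haem deficiency. Overall protein synthesis then slows, while the mRNA of the transcription factor ATF4 is translated more. ATF4 pairs with C/EBP-family proteins and turns on genes that make, import and load amino acids onto tRNA, together with feedback regulators such as CHOP, TRIB3 and GADD34. Read counts measure transcripts, so neither eIF2 phosphorylation nor ATF4 protein was observed.

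The knockout libraries held 13501776, 16323812 and 21133688 counts, and the control libraries 10918498, 15909256 and 23250065. Levels are in CPM, counts scaled to library size with TMM factors, and log2 fold changes are knockout over control from edgeR's quasi-likelihood test, with a call at a Benjamini-Hochberg adjusted p under 0.05 over all 11453 genes that had enough counts. Knockout library 1 stood apart from knockout libraries 2 and 3 on the second principal component (38 against -10.9 and -15.6, with 15.8% of the variance). On the first, with 66.3% of the variance, it lay between them and the controls (20.9, against 51.2 and 43.9 in knockout libraries 2 and 3 and -45 to -34.9 in controls). Control library 2 held stromal transcripts, mostly Col1a1 (132 CPM) and Fn1 (81.9 CPM), each at most 0.36 CPM in any other library, with less of others such as Sparc (6.10 CPM). The summed level of the 15 stromal markers was 227 CPM there and 0.35 to 1.34 CPM elsewhere. Of the leucocyte and dendritic cell markers, Ptprc, Spi1, Irf8 and Cd74 were expressed in all libraries, whereas Flt3, Batf3, Clec9a, Xcr1, H2-Aa, H2-Ab1 and Ciita were at or near 0 in all of them. The targeted gene Cd274 had 7.70, 5.44 and 8.11 CPM in knockout libraries 1, 2 and 3, and 4.65, 5.87 and 6.83 CPM in control libraries 1, 2 and 3 (log2 fold change 0.28, SE 0.25, edgeR adjusted p = 0.415). Its transcript level therefore does not check the label.

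Of the 33 members, 31 had enough counts to be tested; Slc7a3 and Fgf21 did not. Of the 31, 7 were higher in knockout and 0 lower, where 11.8% of all tested genes were higher and 13.5% lower by the same edgeR test. Over the whole table this split moved with the scaling: 1353 genes were higher and 1543 lower here, 2104 and 953 once corrected for exon length and GC content, and 667 and 2212 with scaling by total counts alone. The 7 members were Atf4, Ddit3, Cebpb, Phgdh, Psph, Sars and Eif4ebp1. At an unadjusted p under 0.05, 13 were higher and 0 lower, where 2318 and 2362 of all 11453 tested genes were, and the DESeq2 Wald test called 11 higher and 0 lower (14.6% and 15.5% of all tested genes). To the 7, DESeq2 added Atf3, Shmt2, Gars and Ppp1r15a (DESeq2 adjusted p = 0.0497, 0.0351, 0.0455 and 0.0365). The median log2 fold change of the 31 was 0.40, beside 0.01 over all tested genes. In 14 members all knockout libraries lay above all controls (21.1% of all tested genes), and in 0 members all lay below (21.8%). The members were chosen with results of these data known, so these counts describe them and are no independent evidence of a direction.

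The members differed most among the knockout libraries. Knockout library 1 was the highest of the 6 libraries for 27 of the 31 tested members, where it was the highest for 14.8% of all tested genes. The median level of the members relative to the control mean was 0.77 in knockout library 1, 0.06 in library 2 and 0.07 in library 3 on the log2 (CPM + 0.5) scale. In knockout library 1, 11 members were more than 2-fold above both other knockout libraries (3.2% of all tested genes), namely Aldh1l2, Atf5, Cth, Ddit3, Ddit4, Gpt2, Nupr1, Pycr1, Sesn2, Stc2 and Trib3. In the 5 other libraries, and downward in knockout library 1, 0 members passed 2-fold against both others of the group, where 0.218% to 2.08% of all tested genes did. As the members were chosen with results of these data known, these counts and medians describe them. They are no independent evidence of a difference between libraries. What sets knockout library 1 apart was not tested.

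**Figure D1:**
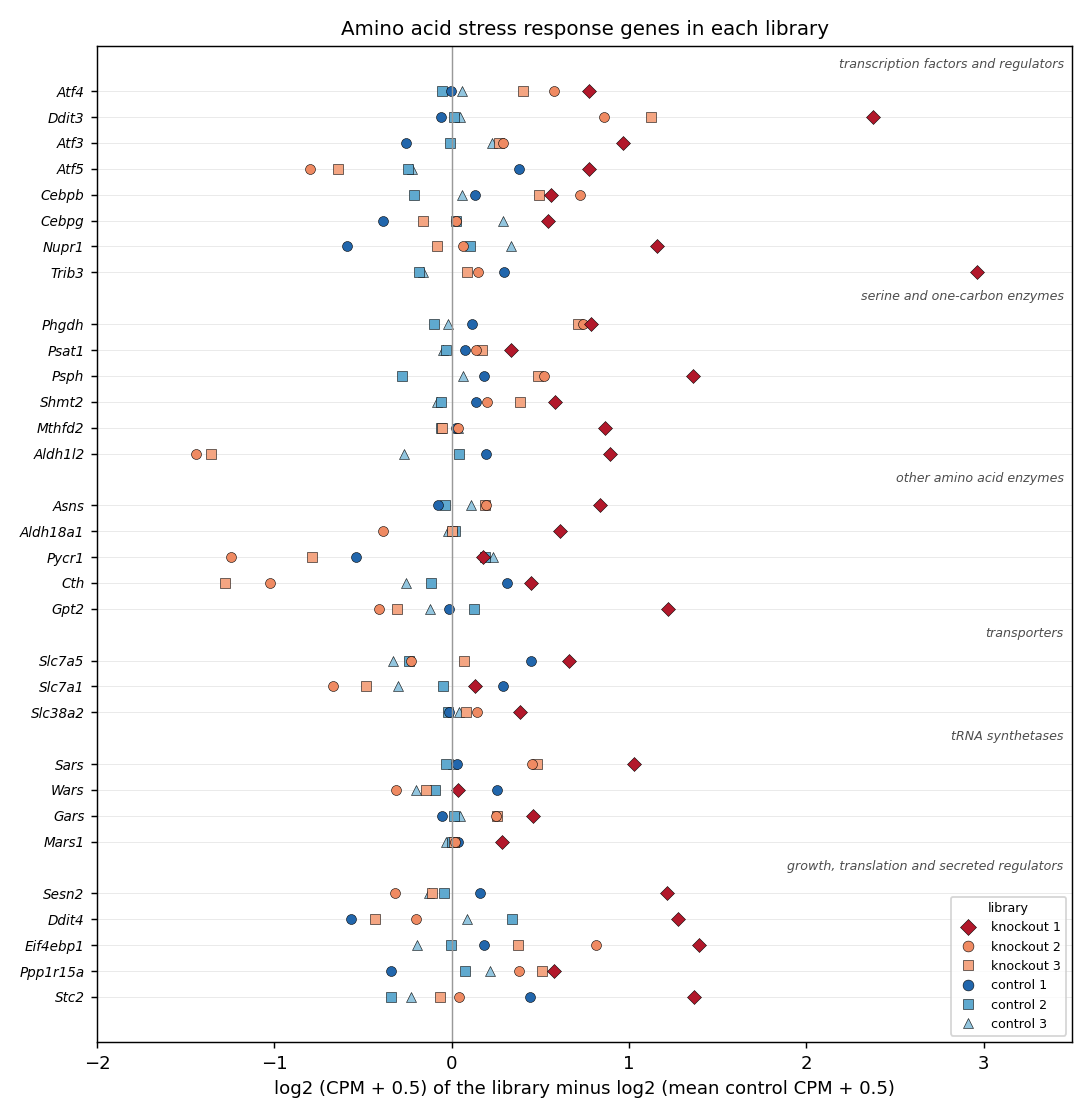
Level of each of the 31 tested genes in each library, as log2 (CPM + 0.5) minus log2 of the mean control CPM + 0.5, ordered by role; red and orange symbols are knockout libraries and blue symbols are controls. Knockout library 1 (diamonds) is the highest symbol in 27 of the 31 rows, and reaches 2.96 for Trib3.

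Without knockout library 1, the same 7 members were called higher, and 5 others were called lower: Atf5, Aldh1l2, Pycr1, Cth and Slc7a1. In that fit 20% of all tested genes were higher and 22.3% lower, so both shares of the members lay near or under the background. The median log2 fold change of the members was then 0.01, and 17 of the 32 members tested there had a positive value, against 25 of 31 with all libraries. Most calls ended when control library 2 was left out, among the members as over the whole table. Phgdh alone was then called higher by edgeR and 0 members lower, with 1.43% of all tested genes higher and 4.07% lower (11.8% and 13.5% with all libraries). At an unadjusted p under 0.05, 8 members were higher and 0 lower (1455 and 1697 of the 11453 genes). The median log2 fold change of the members hardly moved, at 0.41 beside 0.40 with all libraries. Control library 2 is the one with the stromal transcripts, and their part in these calls was not tested. Without control library 3, 4 were called higher (Atf4, Cebpb, Ddit3 and Phgdh) and 0 lower (5.74% and 9.62% of all tested genes).

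**Figure D2:**
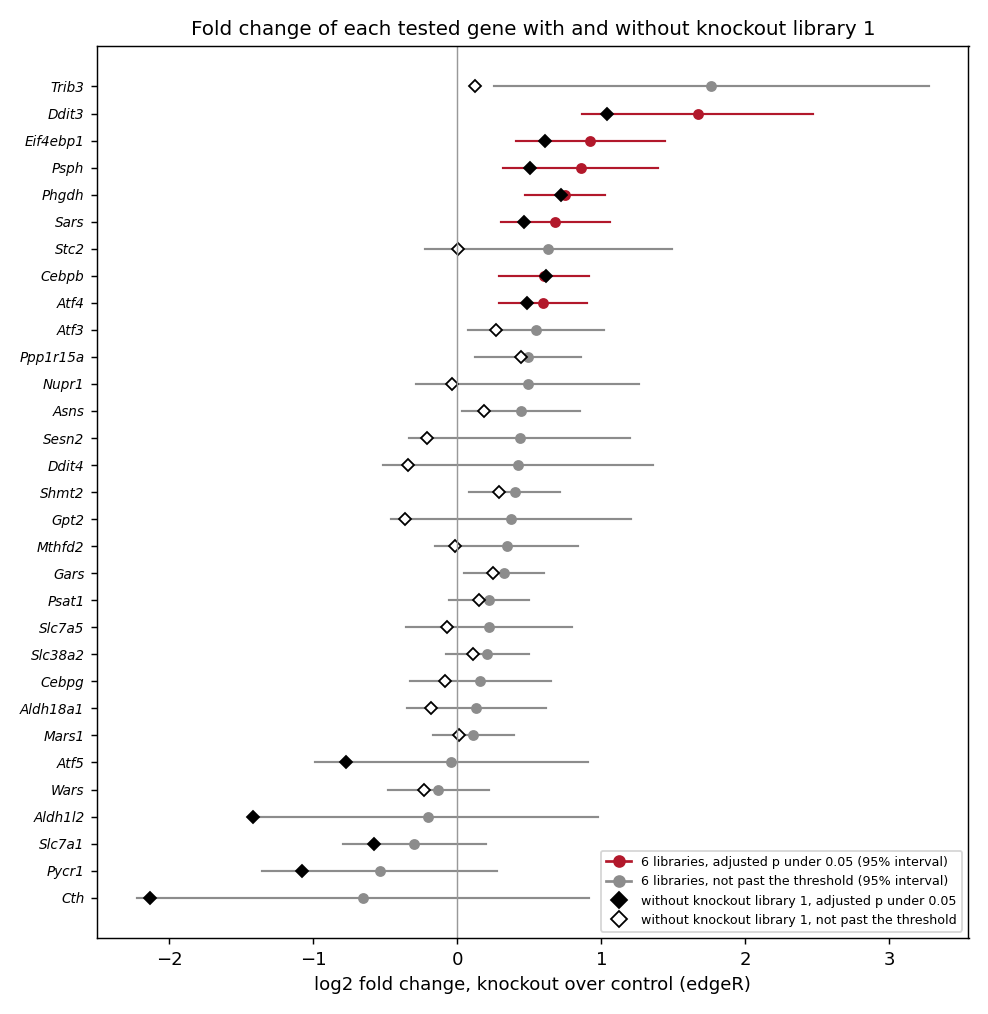
Log2 fold change, knockout over control, for each tested gene, ordered by size. Circles with 95% intervals are the fit with all 6 libraries (red for an adjusted p under 0.05), and diamonds are the fit without knockout library 1 (filled for an adjusted p under 0.05). The diamond of Trib3 lies at 0.12 and that of Cth at -2.14, whereas those of Phgdh and Cebpb lie close to their circles.

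The transcription factors and regulators come first. Atf4, the factor that gives the response its name (chromosome 15, 80255184 to 80257541, mm10), had 672, 585 and 518 CPM in knockout libraries 1, 2 and 3, against 391, 378 and 409 CPM in control libraries 1, 2 and 3. Every knockout library lay above every control, and library 1 was the highest of them. The log2 fold change was 0.59 (SE 0.14, 95% interval 0.29 to 0.90, edgeR adjusted p = 0.0152). It was 0.49 (adjusted p = 0.0101) without knockout library 1, and without control library 2 the call ended (0.57, adjusted p = 0.0879).

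Ddit3 encodes CHOP, a factor that acts downstream of ATF4 and promotes cell death when stress persists (chromosome 10, 127290774 to 127296288). It had 39.9, 13.6 and 16.5 CPM in knockout libraries 1, 2 and 3, against 6.98, 7.35 and 7.55 CPM in controls. The controls were nearly level, knockout libraries 2 and 3 were about 2-fold above them, and library 1 stood far above both. With all libraries the log2 fold change was 1.67 (SE 0.36, edgeR adjusted p = 0.0119). It was 1.04 (adjusted p = 0.000978) without knockout library 1 and no longer called (1.67, adjusted p = 0.0528) without control library 2. Ddit3 shares 68 exon bases at its end with Mars1 on the opposite strand, and the strand setting of the counting is not given in the sources used here, so reads from those bases cannot be told apart.

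Trib3, a pseudokinase that restrains ATF4 and CHOP and blocks AKT (chromosome 2, 152337422 to 152344032), had 1630, 254 and 328 counts in knockout libraries 1, 2 and 3, or 123, 17.1 and 16.3 CPM. Controls had 19.0, 13.5 and 13.7 CPM. One library carried the difference: knockout libraries 2 and 3 lay within the range of the controls, while library 1 was 7.37 times the mean of libraries 2 and 3. Its log2 fold change of 1.76 had an SE of 0.68 and did not pass (edgeR adjusted p = 0.0796), and was 0.12 (adjusted p = 0.614) without knockout library 1. It was called without a filter on low counts, with the replicate block and without knockout library 3.

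Cebpb, a C/EBP factor that can pair with ATF4 (chromosome 2, 167688915 to 167690418), had 96.6, 108 and 91.9 CPM in knockout libraries 1, 2 and 3, with library 1 between the others. Controls had 71.6, 56.3 and 67.9 CPM, so the groups did not overlap (log2 fold change 0.60, SE 0.14, edgeR adjusted p = 0.0157). It was the only tested member at which knockout library 1 was below the mean of libraries 2 and 3, with 30 of 31 above. The value was 0.61 without knockout library 1 (adjusted p = 0.00546). The call ended without control library 2 (0.50, adjusted p = 0.0921) and without knockout library 2 (0.53, adjusted p = 0.0654). It shares 312 exon bases with Tmem189 on the opposite strand, whose log2 fold change was 0.28 (SE 0.17, adjusted p = 0.232).

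The remaining 4 regulators did not pass. Atf3, a stress-induced factor of the same leucine zipper class, had 102, 63.3 and 62.3 CPM in knockout libraries 1, 2 and 3 and 43.1, 51.4 and 60.6 CPM in controls (log2 fold change 0.55, SE 0.21, edgeR adjusted p = 0.0803). DESeq2 called it higher, as did edgeR without a filter on low counts. Nupr1, a small stress-induced nuclear protein, had 28.5, 13.1 and 11.8 CPM in knockout libraries and 8.14, 13.5 and 15.9 CPM in controls. For both, knockout library 1 was the highest; libraries 2 and 3 lay just above the controls for Atf3 and among them for Nupr1 (log2 fold change 0.49, SE 0.35, edgeR adjusted p = 0.316). Cebpg, a C/EBP protein that forms dimers with ATF4, had 60.4, 42.0 and 36.9 CPM in knockout libraries and 31.5, 42.0 and 50.5 CPM in controls, with wide overlap (log2 fold change 0.16, SE 0.22, edgeR adjusted p = 0.618). Atf5, a close relative of ATF4 linked to mitochondrial stress, had 12.4, 3.83 and 4.33 CPM in knockout libraries 1, 2 and 3, against 9.31, 5.87 and 5.95 CPM in controls. Its knockout libraries lay on both sides of the controls, and its log2 fold change was -0.04 with all libraries and -0.77 (edgeR adjusted p = 0.0415) without knockout library 1.

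Letters of the C/EBP-ATF response element, the site that ATF4 and C/EBP partners bind in genes such as Asns, were looked for in the members' promoters. Of the 33 members, 27 had an entry in the RefSeq promoter table (GRCm38.p6, 250 bases before to 50 after each start), with 30 promoters. The letters TGATGNAA, on either strand, were in 7 of the 30 promoters and in 3.97% of all 32851 promoters of that length. The 7 belonged to Atf3, Trib3, Asns, Gars, Fgf21, Nupr1 and Pycr1. The match of Trib3 began 14 bases after the start. The other 6 are shown because they hold the site letters before the start, each with the bases on either side of the match, ending at the start where that comes first. They read 5′ to 3′ on the gene's strand, with the matched letters in capitals.
Atf3: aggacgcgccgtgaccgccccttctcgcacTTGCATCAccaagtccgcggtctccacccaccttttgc
Nupr1: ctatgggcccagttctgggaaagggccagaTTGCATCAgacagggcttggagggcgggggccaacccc
Fgf21: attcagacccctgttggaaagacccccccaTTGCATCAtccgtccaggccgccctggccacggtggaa
Pycr1: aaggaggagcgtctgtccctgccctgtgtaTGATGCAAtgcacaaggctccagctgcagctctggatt
Asns: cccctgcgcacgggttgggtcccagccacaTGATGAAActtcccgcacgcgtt
Gars: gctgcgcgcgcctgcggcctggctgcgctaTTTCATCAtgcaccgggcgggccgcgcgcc
These lie at chr1:191183406-191183473 (Atf3, minus strand), chr7:126625543-126625610 (Nupr1, minus), chr7:45615592-45615659 (Fgf21, minus), chr11:120643814-120643881 (Pycr1, minus), chr6:7693210-7693262 (Asns, minus) and chr6:55037941-55038000 (Gars, plus). TTGCATCA, the reverse complement of TGATGCAA and so a case of TGATGNAA, was in 4 of these promoters (0.895% of all). ATTGCATC, which overlaps it by 7 letters, was in 3 (0.496% of all). Of the 6 genes, Fgf21 had 0 counts. In the others knockout library 1 was above the mean of libraries 2 and 3, to an unlike degree. It was 2.38 times that mean for Pycr1, 2.29 for Nupr1, 1.62 for Atf3, 1.57 for Asns and 1.16 for Gars. Knockout library 1 was above that mean for 30 of the 31 tested members, and for 5681 of all 11453 tested genes. A match describes letters in a window and is not a measured binding site.

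Of the 6 serine and one-carbon enzymes, 2 were higher, 0 were lower and 4 did not pass, with a median log2 fold change of 0.37. Phgdh, which catalyses the first step of serine synthesis (chromosome 3, 98313170 to 98339990), had 1087, 1051 and 1033 CPM in knockout libraries 1, 2 and 3, against 681, 588 and 621 CPM in controls. Its knockout libraries were nearly level and all lay above the controls (1057 ± 27.5 against 630 ± 47.3 CPM, SD, n = 3). In log2 terms the difference was 0.75 (SE 0.12, 95% interval 0.47 to 1.03), with an edgeR adjusted p of 0.00460, and 0.72 without knockout library 1 (adjusted p = 0.000911). It was the only member called in every fit made here, with an adjusted p of 0.0428 without control library 2.

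Psph, the phosphatase of the last step of serine synthesis (chromosome 5, 129765558 to 129787449), had 99.0, 55.1 and 53.8 CPM in knockout libraries 1, 2 and 3 and 43.4, 31.4 and 40.0 CPM in controls. All knockout libraries were above all controls, library 1 by the most (log2 fold change 0.86, SE 0.24, edgeR adjusted p = 0.0291). The value was 0.51 without knockout library 1 (adjusted p = 0.0193), and the call ended without any one of the controls (0.73 without control library 2, adjusted p = 0.126; 0.96, 0.0519 without control library 1; 0.89, 0.0599 without control library 3) and with scaling by total counts alone (0.71, 0.0646). Psph shares 452 exon bases with Cct6a on the opposite strand, which had 763, 1066 and 942 CPM in knockout libraries and 733, 698 and 773 CPM in controls. Psat1, the middle enzyme of the same pathway, had 658, 575 and 588 CPM in knockout libraries and 551, 511 and 506 CPM in controls. The groups did not overlap, but the difference was small and did not pass (log2 fold change 0.22, SE 0.12, edgeR adjusted p = 0.219, 95% interval -0.06 to 0.50).

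In mitochondrial one-carbon metabolism, Shmt2, which splits serine into glycine and a one-carbon unit, had 456, 350 and 399 CPM in knockout libraries 1, 2 and 3 and 335, 293 and 287 CPM in controls. It did not pass (log2 fold change 0.40, SE 0.14, edgeR adjusted p = 0.0639), but did so once trends with exon length and GC content had been taken out of every library (0.40, adjusted p = 0.0397). Mthfd2, the next enzyme in that folate path, had 366, 206 and 194 CPM in knockout libraries and 205, 193 and 206 CPM in controls. Knockout libraries 2 and 3 were level with controls, and library 1 was 1.83 times the mean of knockout libraries 2 and 3 (log2 fold change 0.34, SE 0.22, edgeR adjusted p = 0.272).

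Aldh1l2, which oxidizes mitochondrial formyl-folate and yields NADPH (chromosome 10, 83487450 to 83534140), had the widest split after Trib3 on the log2 (CPM + 0.5) scale. It had 95.8, 18.6 and 19.7 CPM in knockout libraries 1, 2 and 3, against 58.8, 52.8 and 42.6 CPM in controls. Knockout library 1 was above every control and libraries 2 and 3 were below every control. Its log2 fold change was -0.21 (SE 0.53, edgeR adjusted p = 0.795) with all libraries and -1.42 (adjusted p = 7.51e-05) without knockout library 1. Aldh1l2 shares 1056 exon bases with D10Wsu102e on the opposite strand, which had 134, 126 and 125 CPM in knockout libraries and 156, 153 and 114 CPM in controls.

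Of the 5 other amino acid enzymes, edgeR and DESeq2 called 0 in either direction, with 1 higher at an unadjusted p under 0.05 (Asns). Asns, asparagine synthetase (chromosome 6, 7675169 to 7693254), a textbook ATF4 target, had 366, 235 and 234 CPM in knockout libraries 1, 2 and 3, against 194, 200 and 221 CPM in controls. The groups did not overlap, with libraries 2 and 3 close to the highest control (log2 fold change 0.44, SE 0.18, edgeR adjusted p = 0.102; 0.19, adjusted p = 0.26 without knockout library 1). Gpt2, the mitochondrial alanine aminotransferase, had 97.0, 31.1 and 33.4 CPM in knockout libraries and 41.1, 45.2 and 38.1 CPM in controls (log2 fold change 0.37, SE 0.37, edgeR adjusted p = 0.478). As for Aldh1l2, Atf5 and Cth, knockout library 1 was above every control and libraries 2 and 3 were below every control; 4 members had this order, and 3.19% of all tested genes.

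Aldh18a1 and Pycr1 make proline, at the first and last steps from glutamate. Aldh18a1 had 339, 170 and 223 CPM in knockout libraries 1, 2 and 3 and 223, 226 and 219 CPM in controls, on both sides of them (log2 fold change 0.13, SE 0.22, edgeR adjusted p = 0.675). Pycr1 had 12.5, 4.37 and 6.17 CPM in knockout libraries and 7.43, 12.6 and 13.0 CPM in controls, with library 1 inside the control range and libraries 2 and 3 below it. Without knockout library 1 the log2 fold change of Pycr1 was -1.08 (edgeR adjusted p = 0.00798), against -0.54 (SE 0.37, adjusted p = 0.292) with all libraries. Cth, which releases cysteine from cystathionine, had only 24, 5 and 4 counts in knockout libraries 1, 2 and 3 and 18, 18 and 23 counts in controls. Its log2 fold change was -0.66 (SE 0.70, edgeR adjusted p = 0.505), and -2.14 (adjusted p = 0.0106) without knockout library 1.

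None of the transporters was called (0 of 3 tested by edgeR or DESeq2; 0 at an unadjusted p under 0.05). Slc7a5, the large neutral amino acid carrier LAT1, had 403, 217 and 267 CPM in knockout libraries 1, 2 and 3 and 346, 215 and 202 CPM in controls. Library 1 was the highest of each group, and the log2 fold change was 0.22 (SE 0.26, edgeR adjusted p = 0.557). Slc38a2, a sodium-coupled importer of small neutral amino acids, had 338, 286 and 273 CPM in knockout libraries and 256, 255 and 266 CPM in controls. It did not pass (log2 fold change 0.21, SE 0.13, edgeR adjusted p = 0.256) although the groups did not overlap, and it was called once corrected for length and GC content (0.53, adjusted p = 0.00942).

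Slc7a1, the arginine and lysine transporter CAT-1, had 278, 160 and 181 CPM in knockout libraries 1, 2 and 3 and 311, 246 and 206 CPM in controls. Knockout libraries 2 and 3 were below every control and library 1 was among them. Its log2 fold change was -0.30 (SE 0.22, edgeR adjusted p = 0.335), and -0.58 (adjusted p = 0.0166) without knockout library 1. The sign turned once length and GC content were corrected for, to 0.25 with all libraries (adjusted p = 0.245) and 0.14 without knockout library 1 (adjusted p = 0.465); its exons, at 11530 bases, are the longest of the members. Slc7a3, a related cationic carrier, had 5, 6 and 5 counts in knockout libraries and 3, 11 and 16 counts in controls, too few to be tested.

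Of the 4 tRNA synthetases, which load amino acids onto tRNA, 1 was higher and 0 lower (median log2 fold change 0.22). Sars, for serine (chromosome 3, 108424865 to 108445209), had 829, 557 and 568 CPM in knockout libraries 1, 2 and 3, against 414, 396 and 408 CPM in controls. All knockout libraries were well above the controls, which were nearly level (log2 fold change 0.68, SE 0.17, edgeR adjusted p = 0.0188; 0.47, adjusted p = 0.0100 without knockout library 1). The call ended without control library 2 (0.66, adjusted p = 0.0904), without control library 3 (0.69, adjusted p = 0.0518) and with scaling by total counts alone (0.54, adjusted p = 0.0503).

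Gars, for glycine, had 525, 454 and 456 CPM in knockout libraries and 367, 385 and 394 CPM in controls; the groups did not overlap, but it did not pass (0.32, SE 0.13, edgeR adjusted p = 0.0809). Mars1, for methionine, had 164, 137 and 136 CPM in knockout libraries and 138, 135 and 132 CPM in controls. Wars, for tryptophan, had 141, 110 and 124 CPM in knockout libraries 1, 2 and 3 and 164, 129 and 120 CPM in controls, with log2 fold changes of -0.13 for Wars (SE 0.16, edgeR adjusted p = 0.55) and 0.11 for Mars1 (SE 0.13, adjusted p = 0.536). Among 11 of the other cytosolic synthetases that were tested, 3 were higher and 0 lower (Vars 0.52, Rars 0.47 and Farsb 0.39), with a median of 0.24. Of all tested genes, 11.8% were higher and 13.5% lower. Without control library 2, edgeR called 0 of the 11 (3 higher and 0 lower at an unadjusted p under 0.05), where 1.43% of all tested genes were higher and 4.07% lower. With total counts alone 1 was higher (5.82% of all tested genes). Aars, Cars, Lars, Nars and Yars are not among the 11 and were counted with the described targets below. Relative to the control mean, on the log2 (CPM + 0.5) scale, Aars was 0.71, -0.20 and 0.03 in knockout libraries 1, 2 and 3. In that order Cars was 0.70, -0.11 and -0.06, and Lars 0.31, -0.26 and -0.25. Nars was 0.48, 0.05 and -0.12, and Yars 0.48, 0.16 and 0.32.

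Among the 6 growth, translation and secreted regulators, 5 were tested, 1 was higher and 0 lower (median 0.49). Eif4ebp1, which holds back cap-dependent translation by binding eIF4E (chromosome 8, 27260329 to 27276674), had 231, 154 and 113 CPM in knockout libraries 1, 2 and 3. Controls had 99.1, 87.1 and 76.2 CPM, so that all knockout libraries were above all controls although they differed about 2-fold among themselves. The log2 fold change was 0.92 (SE 0.23, edgeR adjusted p = 0.0198), and 0.61 without knockout library 1 (adjusted p = 0.00964). The call ended without control library 2 (0.92, adjusted p = 0.0804), control library 3 (0.84, adjusted p = 0.0592) or knockout library 2 (0.98, adjusted p = 0.0549). Ppp1r15a, whose product GADD34 brings the phosphatase that restores eIF2, had 41.9, 36.5 and 40.0 CPM in knockout libraries and 21.9, 29.5 and 32.6 CPM in controls. It lay just outside the threshold (0.49, SE 0.17, edgeR adjusted p = 0.0536) and, unlike most members, was even among the knockout libraries.

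Both brakes on the growth kinase mTORC1 among the members were high in knockout library 1 alone. Sesn2, which signals leucine shortage, had 93.1, 31.9 and 36.9 CPM in knockout libraries 1, 2 and 3, against 44.6, 38.7 and 36.5 CPM in controls. Ddit4, also known as REDD1, had 41.1, 14.4 and 12.2 CPM in knockout libraries and 11.1, 21.2 and 17.7 CPM in controls. Neither passed (log2 fold changes 0.43, SE 0.34, and 0.42, SE 0.42; edgeR adjusted p = 0.371 and 0.48), and both values were below 0 without knockout library 1 (-0.21 and -0.34, neither called). Stc2, a secreted glycoprotein, had 30.1, 11.8 and 10.8 CPM in knockout libraries and 15.7, 8.89 and 9.63 CPM in controls, with library 1 the highest of each group (log2 fold change 0.63, SE 0.38, edgeR adjusted p = 0.244). Fgf21, a hormone induced by ATF4 in liver, had 0 counts in all 6 libraries, which allows up to 0.142 to 0.222 CPM in knockout libraries and 0.129 to 0.275 CPM in control libraries (3 counts, counting error only).

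**Figure D3:**
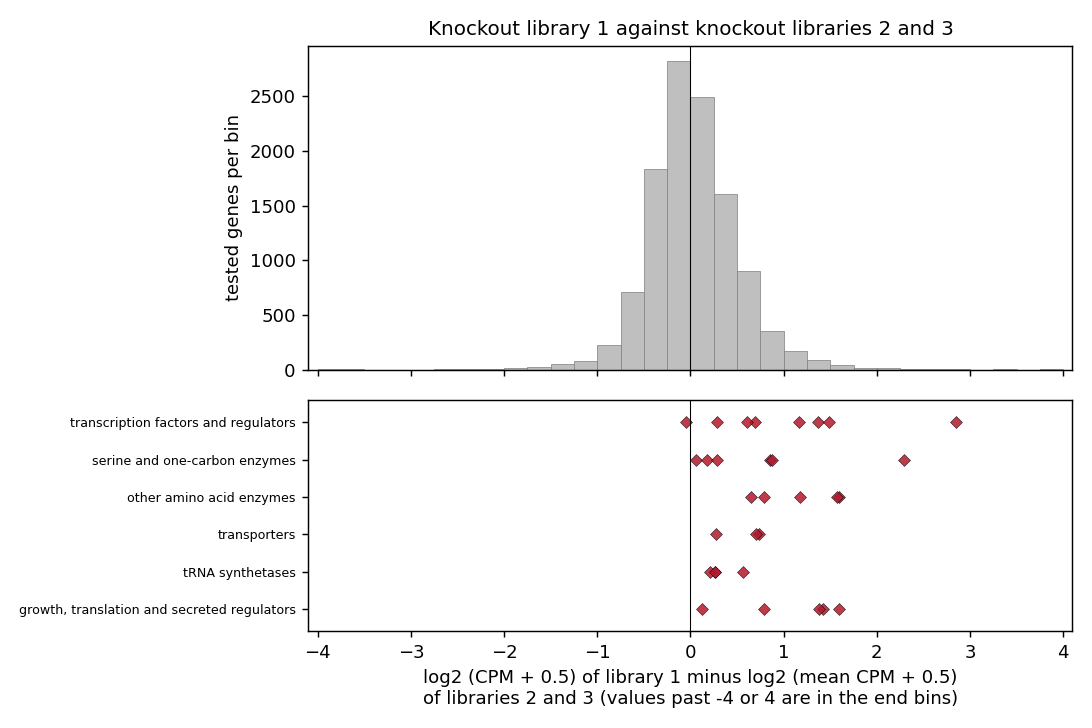
Top, number of tested genes by the log2 difference between knockout library 1 and the mean of knockout libraries 2 and 3 (CPM + 0.5); bottom, the same value for each tested amino acid stress response gene by role. The members have a median of 0.74 and lie between -0.05 (Cebpb) and 2.85 (Trib3), while all tested genes have a median close to 0.

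The difference between knockout library 1 and the other knockout libraries differed widely among members, also within a role. On the log2 (CPM + 0.5) scale the difference was 2.85 for Trib3, 2.29 for Aldh1l2, 1.59 for Cth and Ddit4, 1.57 for Gpt2 and 1.37 for Ddit3. It was 0.21 to 0.56 for the 4 tRNA synthetases, 0.28 for Atf4 and 0.06 for Phgdh. Per kilobase of exon, the mean level in knockout libraries was highest for Phgdh (425 CPM per kb), followed by Atf4 (251), Gars (153), Psat1 (143) and Shmt2 (129). In controls the same scale gave 253 for Phgdh, 166 for Atf4, 123 for both Psat1 and Gars, and 98.1 for Shmt2. The libraries of Psat1 and Gars overlapped on that scale in either group. The 5 members with the highest difference, Trib3, Aldh1l2, Cth, Ddit4 and Gpt2, had control levels from 0.43 (Cth) to 9.51 CPM per kb (Ddit4).

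Upstream of ATF4, the 4 eIF2 kinases differed. Eif2ak4, the sensor of uncharged tRNA known as GCN2, had 46.2, 36.6 and 38.0 CPM in knockout libraries 1, 2 and 3, against 65.4, 68.9 and 58.9 CPM in controls (log2 fold change -0.68, SE 0.14, edgeR adjusted p = 0.0109). Eif2ak2, the double-stranded RNA sensor PKR, had 36.3, 23.9 and 23.6 CPM in knockout libraries and 41.0, 58.0 and 49.9 CPM in controls (-0.83, SE 0.20, adjusted p = 0.0173). Both were lower with no overlap between groups, and neither was called without control library 2. Corrected for length and GC content, the value was -0.38 for Eif2ak4 (edgeR adjusted p = 0.0282) and -0.75 for Eif2ak2 (adjusted p = 0.0211). Eif2ak3, the endoplasmic reticulum sensor PERK (-0.05, SE 0.15, edgeR adjusted p = 0.838), and Eif2ak1, the haem-regulated kinase (0.12, SE 0.15, adjusted p = 0.565), did not pass. Of the 18 tested genes of eIF2, its kinases, phosphatase and exchange factor eIF2B, 2 were higher and 2 lower, the higher ones being the eIF2B subunits Eif2b5 (0.63, SE 0.12) and Eif2b3 (0.58, SE 0.18). The counts for this list were 6 higher and 3 lower without knockout library 1, 5 and 2 corrected for length and GC content, 1 and 3 with total counts alone, and 0 and 0 by edgeR without control library 2 (2 and 3 at an unadjusted p under 0.05). In the same order of fits, the shares of all tested genes called higher and lower were 20% and 22.3%, 18.4% and 8.32%, 5.82% and 19.3%, and 1.43% and 4.07%. With all libraries they were 11.8% and 13.5%.

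Among 33 tested genes described elsewhere as targets of ATF4 or CHOP, 9 were higher and 1 was lower, with a median of 0.33, where 11.8% of all tested genes were higher and 13.5% lower. The counts were 2 and 1 without control library 2 (1.43% and 4.07% of all tested genes), 4 and 1 with total counts alone (5.82% and 19.3%), and 14 and 1 corrected for length and GC content (18.4% and 8.32%). Without knockout library 1, 10 were higher and 4 lower (20% and 22.3% of all tested genes). The median of this list was then 0.11, with 20 of the 33 values positive, against 27 with all libraries. Chac1, a glutathione-degrading enzyme, was also highest in knockout library 1, with 29.4, 7.25 and 9.15 CPM in knockout libraries 1, 2 and 3 and 6.98, 6.16 and 5.63 CPM in controls (log2 fold change 1.28, SE 0.46, edgeR adjusted p = 0.0644). The cystine carrier Slc7a11 was highest there too, but knockout libraries 2 and 3 lay below every control, with 113, 42.0 and 34.3 CPM in knockout libraries and 45.9, 49.8 and 45.2 CPM in controls (log2 fold change 0.42, SE 0.37, edgeR adjusted p = 0.42). For Slc7a11 the value was -0.31 (edgeR adjusted p = 0.0995) without knockout library 1. This sign turned once length and GC content were corrected for, to 0.31 (adjusted p = 0.0489), with 0.89 (adjusted p = 0.0661) for all libraries. Its partner chain Slc3a2 had 552, 368 and 374 CPM in knockout libraries and 313, 242 and 240 CPM in controls (0.70, edgeR adjusted p = 0.0247; a call that ended without control library 2). In contrast, the secreted stress cytokine Gdf15, with 66.8, 74.4 and 67.0 CPM in knockout libraries and 14.0, 25.5 and 24.3 CPM in controls, was even among the knockout libraries (1.69, SE 0.21, edgeR adjusted p = 0.00105). So were the autophagy genes Sqstm1 (1.00, SE 0.12) and Map1lc3b (0.59, SE 0.12). Gpt, the cytosolic counterpart of Gpt2, was lower (-1.32, SE 0.26, edgeR adjusted p = 0.00856).

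The other arms of the unfolded protein response, run by IRE1 with XBP1 and by ATF6, were described in the same way. Atf6 itself, Ero1l and Dnajc3 are not in this list and were counted with the described targets above. Relative to the control mean, on the log2 (CPM + 0.5) scale, Atf6 was 0.25, -0.31 and -0.36 in knockout libraries 1, 2 and 3. In that order Ero1l was 0.60, -0.26 and -0.29, and Dnajc3 -0.04, 0.62 and 0.50. Of 24 tested genes, 10 were higher and 0 lower by edgeR (median 0.53), where 11.8% of all tested genes were higher and 13.5% lower. They numbered 16 and 0 at an unadjusted p under 0.05 (2318 and 2362 of all 11453 tested genes) and 14 and 0 by DESeq2 (14.6% and 15.5%). The counts were 17 and 1 without knockout library 1 (20% and 22.3% of all tested genes), and 4 and 0 without control library 2 (1.43% and 4.07%). Their median level relative to the control mean was 0.16 in knockout library 1, 0.68 in library 2 and 0.67 in library 3. In 10 of the 24, libraries 2 and 3 were above every control and library 1 was not, which held for 0 of the 31 members and 11.3% of all tested genes. Hspa5, the chaperone BiP, named here after its values were seen, had 1341, 2797 and 2586 CPM in knockout libraries 1, 2 and 3, against 1185, 1291 and 1402 CPM in controls (0.79, SE 0.24, edgeR adjusted p = 0.0383). Creld2 (1.19, SE 0.22), Sdf2l1 (1.19, SE 0.18) and Dnajb11 (0.94, SE 0.17) had the same order among knockout libraries with no overlap between groups. Herpud1, which is also induced through ATF4, was level at 106, 111 and 115 CPM in knockout libraries, against 43.5, 47.1 and 44.8 CPM in controls (1.29, SE 0.12, edgeR adjusted p = 0.000227). The list was mixed: knockout library 1 was above every control for 14 of the 24 (33.9% of all tested genes) and the highest library for 5 (14.8% of all tested genes). Ern1, which encodes IRE1 and is named after its values were seen, had 52.5, 15.2 and 20.6 CPM in knockout libraries 1, 2 and 3, against 36.2, 39.0 and 33.6 CPM in controls (-0.31, SE 0.37, edgeR adjusted p = 0.56; -1.02, adjusted p = 0.000625 without knockout library 1). Whether the order of the libraries differs between these lists was not tested.

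**Figure D4:**
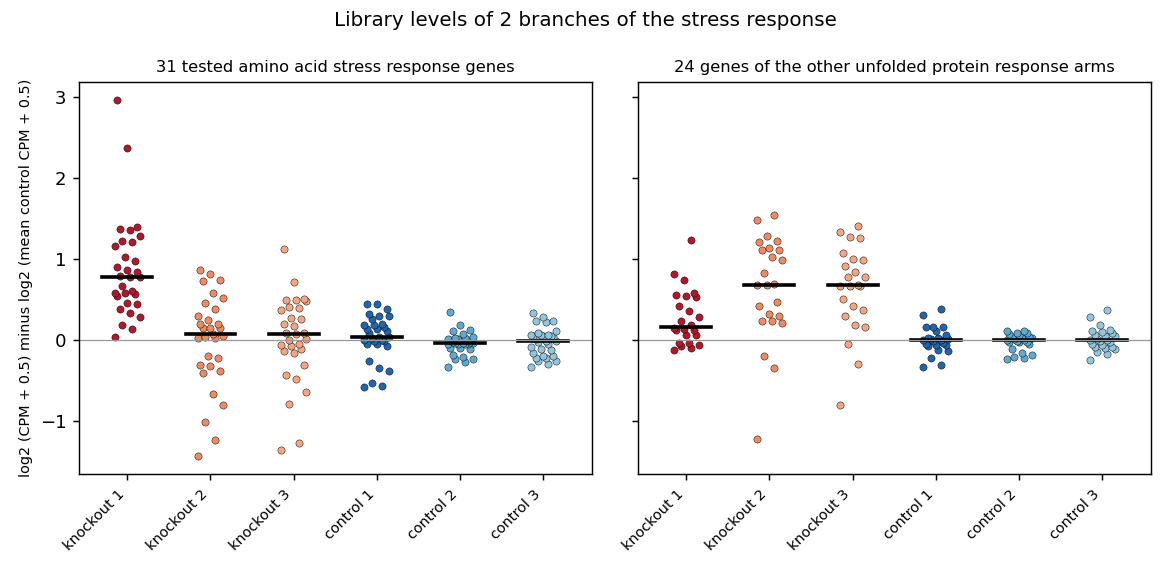
Level of each gene in each library relative to the mean of controls (log2, CPM + 0.5), for the 31 tested amino acid stress response genes and for the 24 genes of the other unfolded protein response arms; black bars are medians. Medians are 0.77, 0.06 and 0.07 in knockout libraries 1, 2 and 3 on one side, and 0.16, 0.68 and 0.67 on the other. Atf6 itself is not among the 24.

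In the nutrient-sensing pathway around mTORC1, 3 of 22 tested genes were higher and 4 lower (median 0.01), shares close to those of all tested genes. Rheb, the GTPase that activates mTORC1, was higher (0.61, SE 0.12), while the mTOR inhibitor Deptor (-0.72, SE 0.18), the GATOR1 subunit Depdc5 (-0.67, SE 0.17) and the arginine-sensor relative Castor2 (-0.65, SE 0.17) were lower. Corrected for length and GC content, 6 were higher and 1 lower (18.4% and 8.32% of all tested genes), with total counts alone 1 and 5 (5.82% and 19.3%), and without knockout library 1 4 and 7 (20% and 22.3%). Of 25 other serine, glycine, folate and methionine enzymes, 4 were higher and 0 lower, where 11.8% and 13.5% of all tested genes were (median 0.16, 6 higher and 1 lower at an unadjusted p under 0.05). The counts were 8 and 3 without knockout library 1, 7 and 0 corrected for length and GC content, and 2 and 1 with total counts alone, beside the shares of all tested genes just given for those fits. Those higher included Bcat1 (0.67, SE 0.13) and Bcat2 (0.58, SE 0.17), which handle branched-chain amino acids, and Gcsh (0.55, SE 0.16), of glycine cleavage. Without control library 2, edgeR called 0 genes of either list (at an unadjusted p under 0.05, 3 higher and 3 lower in the mTORC1 list, and 4 higher and 0 lower among the enzymes).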

How the data were processed

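RNA-seq was deposited for 6 libraries, 3 labelled PD-L1 knockout and 3 labelled control. TRIzol extraction and a KAPA Hyper Prep kit are named, per the labels' protocols. Per the submitters' processing notes, Trimmomatic 0.39, STAR 2.7.5c and StringTie 2.1.7 were used with build mm10; how reads were counted, with which annotation and strand setting, is not given in the sources used here. The authors deposited raw read counts, as whole numbers for each gene.

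Columns were matched to samples by name. Genes were filtered with filterByExpr (11453 of 18546 with a count), scaled by TMM and tested with edgeR 4.0.16 (R 4.3.3; quasi-likelihood, two-sided, 0.05 after Benjamini-Hochberg adjustment over all tested genes). SE is the standard error of a log2 fold change. The common biological coefficient of variation was 17.5%. Every pair of libraries of the same group differed beyond sampling noise (chi-square per degree of freedom 16.3 to 54). Positions and exon lengths are from GENCODE vM21 (mm10), with RefSeq other symbols; 99.7% of tested genes had both a length and a GC content. Alternatives were scaling, filters, DESeq2 1.42.0, the replicate number as a block, loess offsets (span 0.3) on exon length and GC content, and leaving out each library.

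Members and lists were chosen with earlier results of these data known. Named are all members, Cd274, the eIF2 kinases, Gdf15, Slc3a2, Slc7a11 and Chac1, and up to 4 called genes per further list with groups that do not overlap and the lowest adjusted p. Aars, Cars, Lars, Nars, Yars, Atf6, Ero1l and Dnajc3 are also named, as genes of a family or arm that were counted in another list. One gene that the rule names is not reported here.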

Additional observations from a re-analysis of the deposited data

How the results depend on the processing

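The count of members called higher was 11 with the DESeq2 Wald test, in place of 7, and stayed within 1.5 times in the other fits with all libraries (5 with total counts alone, where 5.82% of all tested genes were higher; 7 with DESeq2 size factors or a filter of 1 CPM, 11.6% and 12%; 10 without a filter, 8.69%; 9 after correction for length and GC content, 18.4%); the cause was not tested. Leaving out 1 library gave 1 to 8 higher and 0 to 5 lower, where 1.43% to 20% of all tested genes were higher and 4.07% to 22.3% lower. Of these fits, 5 were higher without knockout library 2 (3.4%), 8 without knockout library 3 (4.6%) and 6 without control library 1 (10%). In each of them 0 were lower (5.49%, 5.81% and 11.2%). Without knockout library 1 after the length and GC correction, a setting chosen after seeing the data, 9 were higher and 4 lower (28.3% and 13% of all tested genes). The number of members past a fold in knockout library 1 was 18 at 1.5-fold (9.13% of all tested genes) and 3 at 3-fold (1.22%), by construction. Scaled by total counts alone, the median of all tested genes was -0.14, with 667 higher and 2212 lower in place of 1353 and 1543; with the length and GC correction it was 0.13, with 2104 and 953. Signs turned for members that were not called with all libraries and TMM scaling: with total counts alone for Aldh18a1 (-0.0088) and Mars1 (-0.038), and after the length and GC correction for Aldh1l2 (0.0135) and Slc7a1 (0.25, and 0.26 with the block). Leaving out 1 library at a time gave values on both sides of 0 for 11 members: Cebpg -0.083 to 0.33, Nupr1 -0.034 to 0.72, Mthfd2 -0.014 to 0.51, Aldh18a1 -0.18 to 0.33, Gpt2 -0.36 to 0.65, Slc7a5 -0.075 to 0.51, Sesn2 -0.21 to 0.70, Ddit4 -0.34 to 0.73 (each lowest without knockout library 1), Atf5 -0.77 to 0.24, Aldh1l2 -1.42 to 0.16 and Wars -0.23 to 0.017. Without knockout library 1 and corrected for length and GC content together, signs turned for Slc7a1 (0.14; -0.58 to -0.13 from leaving out libraries alone), Nupr1 (-0.14), Mthfd2 (-0.0288), Aldh18a1 (-0.06), Gpt2 (-0.10), Sesn2 (-0.11) and Ddit4 (-0.54), and Atf5 was -0.89.

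The replicate number as a block called 9 members higher and 0 lower (12.9% and 15.1% of all tested genes), and 9 and 0 with the length and GC correction (18.2% and 8.6%), where Cebpb was no longer called. Same-numbered libraries did not deviate together in every pair (correlations 0.154, -0.0644 and 0.358), and knockout library 2 did not correlate best with its own number, so the numbers are not shown to pair samples. Depth limits Slc7a3, Fgf21 and Cth, and 3 libraries a group limit every p.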
